A study of Homo sapiens with 4 samples.

Results

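The hypoxia factors and target genes are 10 genes, listed by symbol for their known roles under a rule that uses no measured value, out of the 26364 genes listed in each of the 4 RNA-seq samples. All 10 were listed: the hypoxia-inducible factor subunits HIF1A and EPAS1, the hydroxylases HIF1AN, EGLN1 and EGLN3, the ubiquitin ligase subunit VHL, and the target genes VEGFA, ADM, CA9 and BNIP3. The samples came from BE(2)C cells, a human neuroblastoma line with amplified MYCN, which was transfected with siRNA at 80 nM (the concentration in the sample labels; the study's methods give another) for 6 h and collected the next day. The labels give the genotype of the 2 control samples (Ctrl) as wild type and that of the 2 knockdown samples (MYCN KD) as MYCN kd. By the study's methods, Ctrl cells received a non-targeting siRNA and MYCN KD cells received 1 siRNA against MYCN. Each group is thus a transient treatment of 1 cell line, and no sample is labelled as kept at low oxygen. The comparison asks how the transcripts of oxygen sensing differed once MYCN was lowered.

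Hypoxia-inducible factors are pairs of an alpha subunit, such as HIF1A or EPAS1, and the partner ARNT. At normal oxygen the EGLN enzymes hydroxylate prolines of the alpha subunit, VHL binds the hydroxylated protein and a cullin ligase marks it for degradation, while HIF1AN hydroxylates an asparagine and blocks the binding of coactivators. When oxygen falls, the alpha subunits escape both steps, bind hypoxia response elements and switch on genes for vessel growth, acid handling, mitophagy and glycolysis, along with EGLN1 and EGLN3 themselves. Alpha subunit activity is set mainly on the protein, which RNA-seq does not measure. EPAS1 is known in sympathetic neuroblasts and in tumors of that lineage. MYCN and its partner MAX bind the E-box CACGTG, which holds within it the hypoxia response element core ACGTG.

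The promoters show which of these genes hold either element close to the start of the transcript. RefSeq promoter windows (GRCh38.p14, 250 bases before and 50 bases after a start) were listed for 8 of the 10 genes, with 9 starts in all since HIF1A has 2. VHL and VEGFA had no entry. Each window was searched on both strands for ACGTG and GCGTG, the cores of the hypoxia response element, and for CACGTG, whose matches also count as ACGTG. The core ACGTG was found in 3 of the 8 genes (BNIP3, CA9 and EGLN1), against 21.4% of all 35116 windows of the table. The core GCGTG was found in 4 (ADM, BNIP3, EPAS1 and HIF1A), against 36.5% of all windows. The E-box was found in BNIP3 alone, against 7.26% of all windows. A match is a description of the letters and not a binding site, and elements outside the windows were not searched.

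The bases before the start are printed for the subunit genes HIF1A and EPAS1, for the hydroxylase genes EGLN1 and EGLN3, for BNIP3 as the gene with the E-box and for CA9, whose induction is a common readout of hypoxia. Each is 250 bases, 5′ to 3′ on the strand of the gene, and ends at the last base before the RefSeq start, which need not be the outer bound of the gene given further on. By exact match to GRCh37 they lie at chr14:62161981-62162230 (HIF1A, plus strand), chr2:46524296-46524545 (EPAS1, plus strand), chr1:231558034-231558283 (EGLN1, minus strand), chr14:34420281-34420530 (EGLN3, minus strand), chr10:133795428-133795677 (BNIP3, minus strand) and chr9:35673675-35673924 (CA9, plus strand). Capitals mark the matches to these motifs on either strand.
HIF1A: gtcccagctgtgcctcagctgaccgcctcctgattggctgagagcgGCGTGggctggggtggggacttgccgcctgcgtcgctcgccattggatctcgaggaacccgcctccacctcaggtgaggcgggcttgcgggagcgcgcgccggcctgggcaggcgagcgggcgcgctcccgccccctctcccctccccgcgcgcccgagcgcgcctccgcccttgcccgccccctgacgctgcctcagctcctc
EPAS1: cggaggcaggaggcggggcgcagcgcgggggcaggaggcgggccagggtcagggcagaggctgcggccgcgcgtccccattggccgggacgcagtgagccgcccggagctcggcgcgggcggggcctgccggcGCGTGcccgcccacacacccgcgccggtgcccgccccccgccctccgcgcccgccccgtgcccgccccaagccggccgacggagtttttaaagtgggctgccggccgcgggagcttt
EGLN1: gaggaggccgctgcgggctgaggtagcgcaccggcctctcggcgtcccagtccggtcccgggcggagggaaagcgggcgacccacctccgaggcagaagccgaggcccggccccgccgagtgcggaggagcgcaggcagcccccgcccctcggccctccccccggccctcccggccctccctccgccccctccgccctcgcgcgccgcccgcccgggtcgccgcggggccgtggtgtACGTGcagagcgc
EGLN3: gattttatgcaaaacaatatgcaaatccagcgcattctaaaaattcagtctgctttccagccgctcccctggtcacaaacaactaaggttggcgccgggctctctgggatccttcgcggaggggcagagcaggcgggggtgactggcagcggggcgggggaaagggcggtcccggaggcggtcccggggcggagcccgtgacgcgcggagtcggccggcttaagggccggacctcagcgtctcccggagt
BNIP3: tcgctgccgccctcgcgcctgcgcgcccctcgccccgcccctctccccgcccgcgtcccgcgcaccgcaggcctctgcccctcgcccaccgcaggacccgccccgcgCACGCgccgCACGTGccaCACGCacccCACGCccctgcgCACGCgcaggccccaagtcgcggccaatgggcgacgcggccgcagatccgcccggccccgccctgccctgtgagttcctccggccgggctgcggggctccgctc
CA9: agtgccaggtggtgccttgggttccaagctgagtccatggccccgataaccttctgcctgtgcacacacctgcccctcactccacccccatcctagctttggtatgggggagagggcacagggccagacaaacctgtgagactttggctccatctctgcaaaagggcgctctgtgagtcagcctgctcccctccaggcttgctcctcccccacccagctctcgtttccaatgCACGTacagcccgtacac
In EGLN1 the match lay from 13 to 9 bases before the start, and in CA9 from 18 to 14 bases before it on the reverse strand. In BNIP3 the E-box lay from 134 to 129 bases before the start and was flanked by 4 reverse matches of GCGTG between 143 and 100 bases before it. EGLN3 held none of these letters in the window.

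The reads behind the RPKM values (read counts scaled by gene length and by the total of the sample) were recovered as whole numbers, with totals from 29055819 to 34142988 reads per sample. MYCN, the targeted gene, was at 1068 and 1073 RPKM in the Ctrl samples against 720.2 and 718.0 RPKM after the knockdown. It fell by 0.57 on the log2 scale (standard error 0.029; limma, Benjamini-Hochberg adjusted p = 0.00361), so both knockdown samples matched their label, with a ratio of 0.672 to Ctrl. With quantile normalization it fell by 0.38. MYCN shares 98 bases of exon with MYCNOS on the opposite strand. MYCNOS was listed at 27.5 and 28.1 RPKM in the Ctrl samples against 52.6 and 51.5 RPKM after the knockdown. Over all tested genes the deviations of same-numbered samples from their group means were mirror images, with a correlation of -0.985 across genes. RUVSeq, a tool that takes out unwanted variation, was applied to the counts before deposit, and its part in this pattern was not tested. The tests treat the 4 samples as independent (2 residual degrees of freedom), and with fewer independent samples each standard error and p would mean less than it states. The 8 markers of sympathetic neuroblasts were all tested and summed to between 1251 and 1353 RPKM in Ctrl and between 1988 and 2163 RPKM in MYCN KD. Markers of other cells summed to far less, and these sums were higher in MYCN KD than in Ctrl. They were 12.6 to 14.97 against 16.7 to 19.6 RPKM for 5 fibroblast genes and 0.286 to 0.373 against 0.511 to 0.653 RPKM for 4 endothelial genes. For 5 leukocyte genes they were 5.00 to 6.03 against 11.0 to 13.2 RPKM. Of the fibroblast genes, COL1A1 and DCN were higher in both MYCN KD samples, while COL1A2, COL3A1 and LUM overlapped between the groups. Of the leukocyte genes, CD68 made up most, and PTPRC, which defines leukocytes, was at 0.00464 RPKM at most. The part of these markers in the results was not tested.

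The 2 alpha subunit genes and the inhibitory hydroxylase gene HIF1AN had more transcript in each MYCN KD sample than in either Ctrl sample, and the prolyl hydroxylase genes EGLN1 and EGLN3 were lower in both. Of the target genes, VEGFA overlapped between the groups, BNIP3 was lower in both MYCN KD samples, and ADM and CA9 were near the limit of detection. With limma on log2(RPKM + 1) over the 11411 genes whose mean reached 1 RPKM, EPAS1 and HIF1AN rose and EGLN3 fell at an adjusted p under 0.05, HIF1A, EGLN1, VHL, VEGFA and BNIP3 did not pass, and ADM and CA9 were under the filter. Thus 3 of 8 tested genes were called (37.5%), against 48.1% of all tested genes, of which 25.3% were higher and 22.8% lower. The groups did not overlap in 8 of the 10 genes, against 65.6% of the 19908 genes above 0 in any sample, and in 7 of the 8 tested genes, against 76.2% of all tested genes. The share called was below that of all genes and the share without overlap not far above it, so neither number is a result about hypoxia genes. In these samples fewer cells with a transcript and less transcript per cell cannot be told apart.

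**Figure D1:**
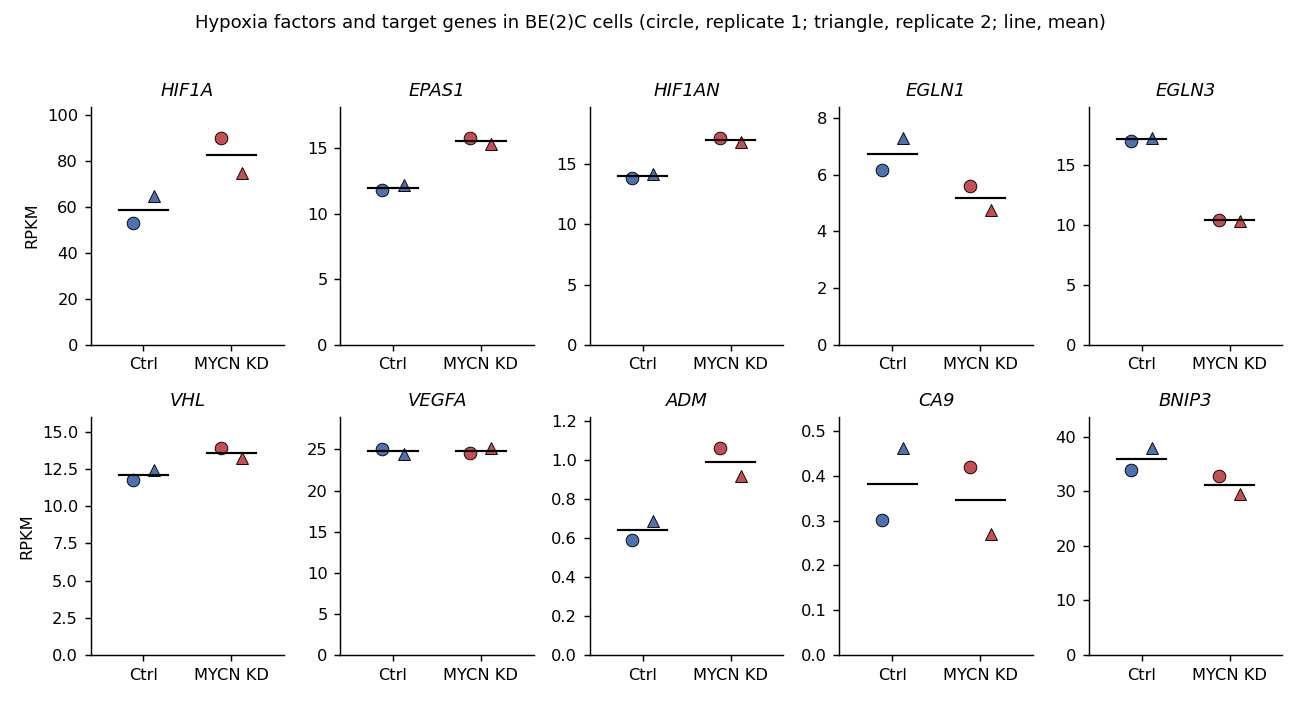
RPKM of the 10 genes in each sample, with a panel per gene and the vertical axis from 0; circles are replicate 1, triangles replicate 2 and lines the mean of each group (n = 2). HIF1A, EPAS1, HIF1AN, VHL and ADM were higher and EGLN1, EGLN3 and BNIP3 lower in both MYCN KD samples, while VEGFA and CA9 overlapped.

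HIF1A, the broadly expressed alpha subunit, spans bases 62162231 to 62214977 of chromosome 14 (GRCh37, plus strand; the same build holds for each position given here). It had 53.2 and 64.7 RPKM in the Ctrl samples against 90.3 and 74.7 RPKM after the knockdown, from 7976 to 11534 reads per sample. Both MYCN KD samples lay above both Ctrl samples, but the replicates of each group were far apart. The mean was 58.9 ± 8.14 RPKM (SD, n = 2) in Ctrl and 82.5 ± 11.0 RPKM (SD, n = 2) in MYCN KD, 40.1% higher. The difference of 0.48 on the log2 scale (standard error 0.15, 95% interval 0.04 to 0.92) was not called (limma, adjusted p = 0.0734). With 1 sample left out the log2 fold change ranged from 0.34 without Ctrl replicate 1 to 0.62 without Ctrl replicate 2. Such a fit leaves 1 sample in a group and 1 residual degree of freedom, and assumes that the lone sample varies like the other group. Its p rests largely on variance pooled over all genes, so effect sizes alone are given for such fits. HIF1A shares 299 bases of exon with HIF1A-AS3 and 133 bases with HIF1A-AS1, both on the opposite strand. A long noncoding RNA gene on the same strand shares 148 bases. HIF1A-AS1 was listed at 0.314 to 1.53 RPKM. The strand setting of the counting is not given in the sources used here.

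EPAS1, the alpha subunit also called HIF2A, lies on chromosome 2 from 46520806 to 46613836 on the plus strand. It had 11.8 and 12.2 RPKM in the Ctrl samples against 15.8 and 15.4 RPKM after the knockdown. The samples of each group lay close together and well apart from the other group. The mean rose from 11.998 ± 0.258 to 15.6 ± 0.323 RPKM (SD, n = 2 each), by 29.9%, with a log2 fold change of 0.35 (standard error 0.042, limma adjusted p = 0.00994). With 1 sample left out the log2 fold change was from 0.33 to 0.37. With a block for the replicate number EPAS1 was not called (limma, adjusted p = 0.0805). That fit leaves 1 residual degree of freedom, and its p also rests largely on variance pooled over all genes. The replicate numbers were not taken to pair the samples. Here and below, a call lost with the block is thus not a failed check of a pairing.

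Of the hydroxylases, HIF1AN rose and EGLN3 fell. HIF1AN, also called factor inhibiting HIF, lies on chromosome 10 from 102288829 to 102319755 on the plus strand and had 13.9 and 14.2 RPKM in the Ctrl samples against 17.2 and 16.8 RPKM after the knockdown. All values of MYCN KD were above those of Ctrl, and the mean was 21.1% higher. This was a rise of 0.26 on the log2 scale (standard error 0.039; limma, adjusted p = 0.0158). Its log2 fold change with 1 sample left out was from 0.24 to 0.28. With a block for the replicate number its call was lost (limma, adjusted p = 0.210). HIF1AN shares 325 bases of exon with NDUFB8 on the opposite strand, which was listed at 201 to 213 RPKM.

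EGLN3 encodes the prolyl hydroxylase PHD3 and had the largest change of the 3 genes that passed the test. It lies on chromosome 14 from 34393433 to 34931980 on the minus strand. It had 17.0 and 17.3 RPKM in the Ctrl samples, from 1584 and 1508 reads, against 10.5 and 10.3 RPKM after the knockdown, from 827 and 869 reads. The replicates nearly coincided in both groups. The mean fell by 39.6%, with a log2 fold change of -0.68 (standard error 0.037, 95% interval -0.79 to -0.56, limma adjusted p = 0.00383). It passed under each alternative fitted to all 4 samples, and with 1 sample left out its log2 fold change was from -0.69 to -0.66.

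EGLN1 encodes PHD2, known as the main oxygen sensor at normal oxygen, and lies on chromosome 1 from 231499497 to 231558033 on the minus strand. It had 6.18 and 7.31 RPKM in the Ctrl samples against 5.61 and 4.77 RPKM after the knockdown. The groups did not overlap, but the gap between them was smaller than that between the Ctrl replicates. On the log2 scale the difference was -0.32 (standard error 0.12, 95% interval -0.66 to 0.02), which was not called (limma, adjusted p = 0.0974). It passed with quantile normalization (log2 fold change -0.38, limma adjusted p = 0.0269). With 1 sample left out the log2 fold change was from -0.43 to -0.22. EGLN1 shares 3004 bases of exon with another protein-coding gene annotated on the same strand.

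VHL, the subunit that recognizes the hydroxylated alpha subunits, lies on chromosome 3 from 10183462 to 10195351 on the plus strand. It had 11.8 and 12.4 RPKM in the Ctrl samples against 13.9 and 13.2 RPKM after the knockdown. Both MYCN KD samples were higher; the ratio of means was 1.12. The log2 fold change of 0.15 (standard error 0.052, 95% interval -0.0013 to 0.31) did not pass (limma, adjusted p = 0.0888). VHL shares 1173 bases of exon with a long noncoding RNA gene on the opposite strand.

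Of the targets, VEGFA, the main growth factor for vessels, lies on chromosome 6 from 43737921 to 43754224 on the plus strand. It had 25.1 and 24.4 RPKM in the Ctrl samples against 24.5 and 25.2 RPKM after the knockdown, from 2692 to 3237 reads. The groups overlapped and their means were 24.8 ± 0.478 and 24.9 ± 0.473 RPKM (SD, n = 2 each). The difference on the log2 scale was 0.01, with a 95% interval from -0.11 to 0.12 (limma, adjusted p = 0.913). BNIP3, a mitochondrial protein that promotes mitophagy, lies on chromosome 10 from 133781188 to 133795471 on the minus strand. It had 33.9 and 38.0 RPKM in the Ctrl samples against 32.9 and 29.5 RPKM after the knockdown. Both MYCN KD samples lay under both Ctrl samples, but MYCN KD replicate 1 was close to Ctrl replicate 1. The log2 fold change of -0.20 (standard error 0.090, 95% interval -0.46 to 0.07) did not pass (limma, adjusted p = 0.157). With 1 sample left out it ranged from -0.28 without Ctrl replicate 1 to -0.12 without Ctrl replicate 2.

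ADM encodes adrenomedullin, a peptide that widens vessels, and lies on chromosome 11 from 10326620 to 10328944 on the plus strand. It had 0.589 and 0.688 RPKM in the Ctrl samples, from 32 and 35 reads, against 1.06 and 0.915 RPKM after the knockdown, from 49 and 45 reads. Both MYCN KD samples were higher, at a ratio of means of 1.55. The exact 95% Poisson interval was 0.403 to 0.832 RPKM for Ctrl replicate 1 and 0.479 to 0.957 RPKM for Ctrl replicate 2, and 0.785 to 1.40 RPKM and 0.667 to 1.22 RPKM for MYCN KD replicates 1 and 2. Each interval covers counting error only, and those of the 2 groups overlapped. ADM was not tested under the filter. Without a filter its log2 fold change was 0.28 on log2(RPKM + 1) (limma, adjusted p = 0.0504) and 0.62 with limma voom on the recovered reads (adjusted p = 0.0449), an alternative added after seeing the data.

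CA9, a carbonic anhydrase at the cell surface, lies on chromosome 9 from 35673925 to 35681156 on the plus strand. It had 0.302 and 0.463 RPKM in the Ctrl samples against 0.421 and 0.270 RPKM after the knockdown, from 13 to 23 reads. The groups overlapped, and no difference was detectable at this depth. Without a filter the log2 fold change was -0.04 on log2(RPKM + 1) (limma, adjusted p = 0.770). CA9 shares 571 bases of exon with ARHGEF39 on the opposite strand, which was listed at 2.45 to 3.29 RPKM.

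**Figure D2:**
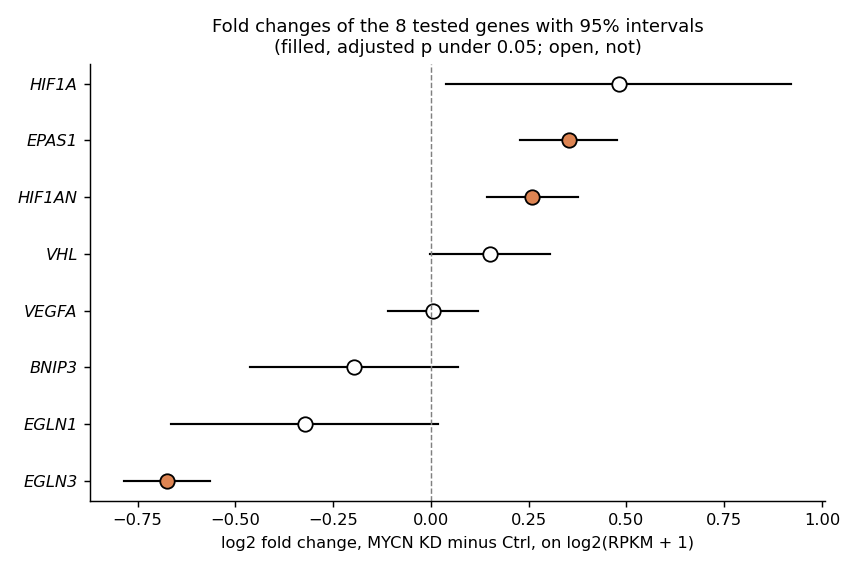
Log2 fold change (MYCN KD minus Ctrl, on log2(RPKM + 1)) of the 8 tested genes with 95% intervals from limma; filled points passed an adjusted p of 0.05. EPAS1 (0.35), HIF1AN (0.26) and EGLN3 (-0.68) are filled, and HIF1A has the widest interval, from 0.04 to 0.92.

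Since RPKM is per length, levels can be set beside each other, within a limit. Exons shared with other genes, as in EGLN1, HIF1AN and VHL, could shift a level, and this was not tested. In Ctrl the order of mean RPKM was HIF1A (58.9), BNIP3 (35.9), VEGFA (24.8), EGLN3 (17.2), HIF1AN (14.1), VHL (12.1), EPAS1 (11.998), EGLN1 (6.75), ADM (0.639) and CA9 (0.382). Only VHL and EPAS1 overlapped as neighbors in this order. In MYCN KD the order of mean RPKM was HIF1A (82.5), BNIP3 (31.2), VEGFA (24.9), HIF1AN (17.0), EPAS1 (15.6), VHL (13.6), EGLN3 (10.4), EGLN1 (5.19), ADM (0.988) and CA9 (0.346), with no overlap between neighbors. EGLN3 thus went from the place above HIF1AN, VHL and EPAS1 to the place below them.

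Ratios within a sample do not depend on a linear scaling of that sample. The ratio of EPAS1 to HIF1A was 0.222 and 0.188 in the Ctrl samples against 0.175 and 0.206 after the knockdown. These values overlapped, and HIF1A was the more abundant alpha subunit transcript in each sample. The ratio of EGLN3 to EGLN1 was 2.76 and 2.37 in the Ctrl samples against 1.86 and 2.16 after the knockdown. Neither MYCN KD value reached the lower Ctrl value, and EGLN3 stayed the more abundant of the pair. These ratios are given as values with no test, and the exon that EGLN1 shares with another gene was not set apart.

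**Figure D3:**
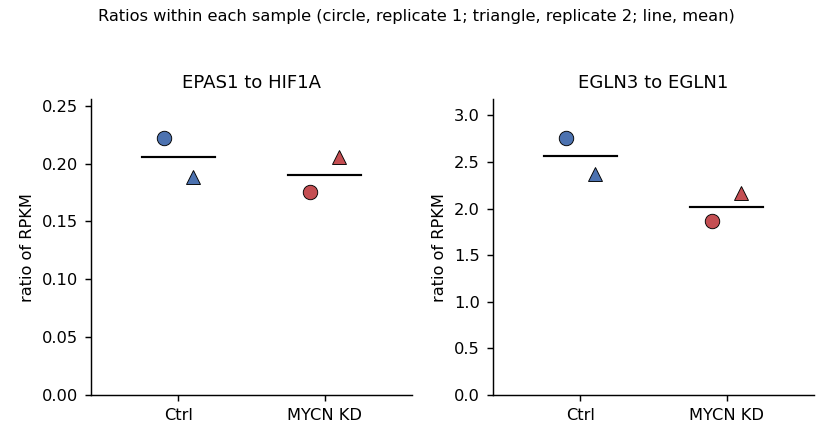
Ratio of RPKM between EPAS1 and HIF1A (left) and between EGLN3 and EGLN1 (right) in each sample, with circles for replicate 1, triangles for replicate 2 and lines for the group mean (n = 2). The left ratio overlaps between groups at 0.175 to 0.222, and the right ratio is 2.37 or more in Ctrl and 2.16 or less in MYCN KD.

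The replicates deviated in a shared way. In 9 of the 10 genes (90.0%) Ctrl replicate 2 was above Ctrl replicate 1 and MYCN KD replicate 1 was above MYCN KD replicate 2, and VEGFA was the exception. This held for 56.5% of the 11411 tested genes, which leave out ADM and CA9. Deviations of same-numbered samples were mirror images across genes, so the order of the MYCN KD replicates mostly follows from that of the Ctrl replicates. The difference between these shares was not tested. HIF1A, EGLN1 and BNIP3 were the tested genes with the widest spread relative to their mean. With 2 samples per group, a wider spread by itself gives a larger move when a sample is left out. Their wider ranges in those fits are therefore no separate finding.

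**Figure D4:**
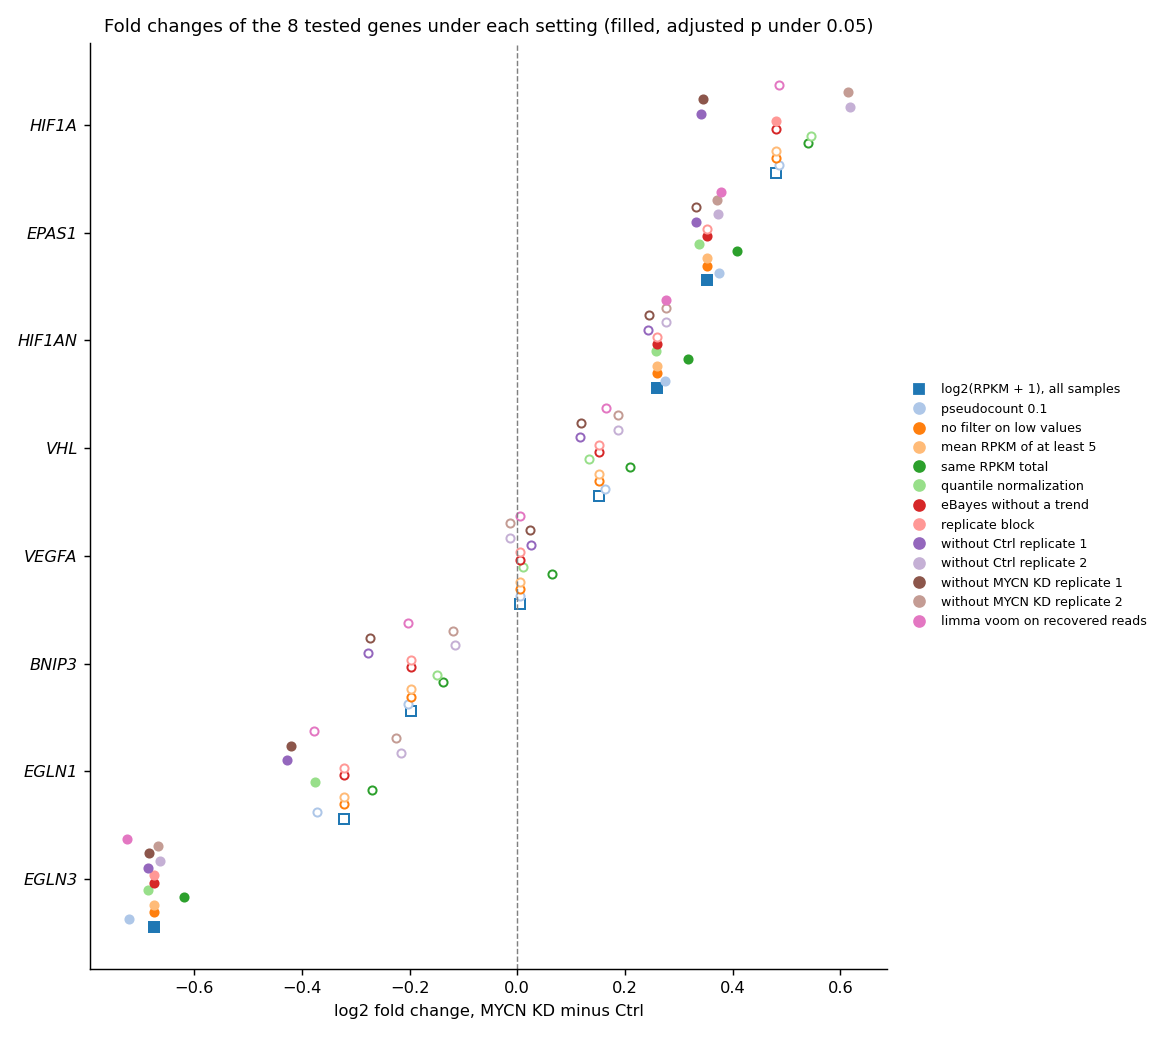
Log2 fold change (horizontal axis) of the 8 tested genes (rows) under each setting (colors), with filled points for an adjusted p under 0.05. EGLN3 is filled under every setting with all 4 samples, HIF1A keeps values from 0.34 to 0.62, and VEGFA stays between -0.01 and 0.06. Fits with a sample left out leave 1 sample in a group, and their fill is not read.

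Of the further genes of the oxygen-sensing machinery, 4 rose, 5 fell and 10 did not pass among 19 tested (47.4% called, against 48.1% of all tested genes), with a median log2 fold change of -0.06 against 0.03 for all tested genes. The genes that fell included negative regulators and helpers of the pathway alike. CITED2, an inhibitor that competes with the alpha subunits for coactivators, had 4.30 and 4.39 RPKM in the Ctrl samples against 2.02 and 1.98 RPKM after the knockdown, and its log2 fold change was -0.83 (standard error 0.039, limma adjusted p = 0.00359). SIAH2, a ligase that marks prolyl hydroxylases for degradation, fell by 0.73 on the log2 scale, from 28.1 and 29.5 to 17.3 and 16.6 RPKM (limma, adjusted p = 0.00431). HSP90AB1, a chaperone that stabilizes HIF1A, fell by 0.68 on the log2 scale, from 956.4 and 979.9 to 610.6 and 597.6 RPKM (limma, adjusted p = 0.00359). LIMD1, a scaffold that joins hydroxylase and VHL, fell by 0.28, and the coactivator CREBBP by 0.30, both on the log2 scale (adjusted p = 0.0127 and 0.0382 from limma).

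The 4 that rose were OS9, a protein that binds alpha subunits and hydroxylases, the deubiquitinases USP20 and USP33, and RBX1, the RING subunit of the cullin ligase. OS9 had 75.3 and 71.2 RPKM in the Ctrl samples against 98.1 and 103.5 RPKM after the knockdown, and its log2 fold change was 0.46 (limma, adjusted p = 0.00908). USP20 rose by 0.45, USP33 by 0.53 and RBX1 by 0.24 on the log2 scale (adjusted p = 0.00861, 0.0399 and 0.0123 from limma). With 1 sample left out the log2 fold change was -0.28 for LIMD1, from 0.23 to 0.25 for RBX1 and from -0.36 to -0.25 for CREBBP. With a block for the replicate number the calls of LIMD1, RBX1 and CREBBP were lost (limma, adjusted p = 0.204 for LIMD1 and 0.136 for CREBBP). Those of CREBBP and USP33 were lost without a filter on low values (limma, adjusted p = 0.0573 and 0.0645). ARNT, the partner of the alpha subunits, had 11.9 and 12.1 RPKM in the Ctrl samples against 11.5 and 11.3 RPKM after the knockdown and did not pass (log2 fold change -0.07, limma adjusted p = 0.230). Its neuronal relative ARNT2 was at 2.27 to 2.61 RPKM (log2 fold change -0.09, limma adjusted p = 0.200) and passed with quantile normalization (-0.19, adjusted p = 0.0236). HIF3A, another alpha subunit, was under the filter, at 0.0275 and 0.0440 RPKM (6 and 9 reads) in the Ctrl samples against 0.264 and 0.177 RPKM (49 and 35 reads) after the knockdown. Without a filter the log2 fold change of HIF3A was 0.24 on log2(RPKM + 1) (limma, adjusted p = 0.0365). It was 2.56 with limma voom on the recovered reads (adjusted p = 0.0215), an alternative added after seeing the data. EGLN2, another prolyl hydroxylase, was also under the filter, at 0.172 to 0.287 RPKM, and overlapped between the groups.

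Known HIF targets outside glycolysis went in both directions. Of 35 listed, 25 were tested, of which 5 rose, 6 fell and 14 did not pass (44% called, against 48.1% of all tested genes), and the median log2 fold change was -0.01. With quantile normalization 6 rose and 7 fell, against 2900 and 2990 of all 11411 tested genes. ANGPTL4, a secreted inhibitor of lipoprotein lipase, rose most, from 0.999 and 0.886 to 5.06 and 5.56 RPKM, a log2 fold change of 1.70 (standard error 0.065, limma adjusted p = 0.00359). HMOX1, heme oxygenase, rose from 9.04 and 8.63 to 17.9 and 18.7 RPKM, and P4HA2, a collagen prolyl hydroxylase subunit, from 7.85 and 7.80 to 14.8 and 14.8 RPKM. Their log2 fold changes were 0.97 and 0.84, and that of KLHL24, a ubiquitin ligase adaptor, was 0.72 (adjusted p = 0.00361, 0.00359 and 0.0202 from limma).

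STC2, a secreted glycoprotein, fell most, from 5.49 and 4.49 to 1.35 and 1.65 RPKM, a log2 fold change of -1.26 (standard error 0.12, limma adjusted p = 0.00678). MXI1, which binds MAX and opposes MYC proteins, fell from 7.36 and 8.22 to 3.63 and 3.28 RPKM, a log2 fold change of -0.98 (limma, adjusted p = 0.00556). TFRC, the transferrin receptor, fell by 0.96 and FAM162A, a mitochondrial protein, by 0.66 on the log2 scale (adjusted p = 0.00976 and 0.00359 from limma). BNIP3L, the relative of BNIP3, had 3.41 and 4.24 RPKM in the Ctrl samples against 6.41 and 5.19 RPKM after the knockdown. Its log2 fold change of 0.50 did not pass (limma, adjusted p = 0.0604) but did with quantile normalization (adjusted p = 0.0334). With 1 sample left out the log2 fold change was from 0.37 to 0.63. BNIP3 itself was lower in both MYCN KD samples, so the pair pointed in opposite directions, and the difference between them was not tested.

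**Figure D5:**
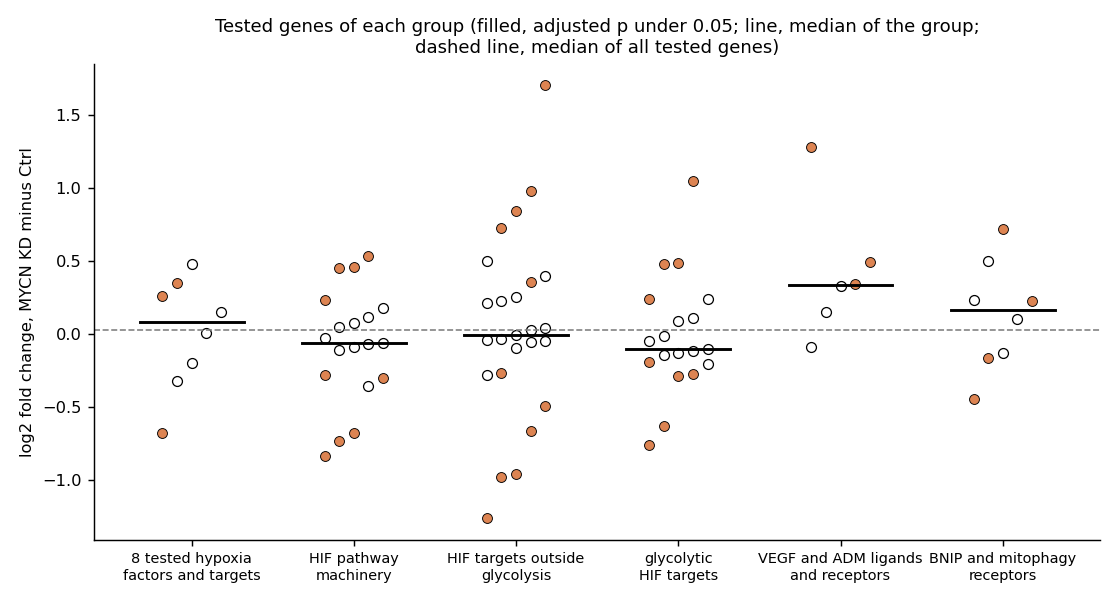
Log2 fold change (MYCN KD minus Ctrl, on log2(RPKM + 1)) of the tested genes of each group, with filled points for an adjusted p under 0.05, solid lines at the median of a group and a dashed line at the median of all tested genes (0.03). Medians lie from -0.10 for glycolytic targets to 0.33 for VEGF and ADM ligands and receptors.

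Among the relatives and receptors of VEGFA and ADM, 3 of 6 tested genes rose and 0 fell in the limma fit (50% called, against 48.1% of all tested genes), with a median log2 fold change of 0.33. Without a filter on low values 5 of the 14 listed rose and 0 fell, against 3384 and 2594 of the 19908 genes above 0 in any sample. The 3 were PGF and the neuropilins. PGF, placental growth factor, had 14.1 and 12.9 RPKM in the Ctrl samples against 32.6 and 35.5 RPKM after the knockdown, and its log2 fold change was 1.28 (standard error 0.073, limma adjusted p = 0.00396). NRP1, a co-receptor of VEGFA and of semaphorins, rose from 29.1 and 28.9 to 41.1 and 41.5 RPKM, a log2 fold change of 0.50 (limma, adjusted p = 0.00441), and NRP2 rose by 0.34 on the log2 scale (limma, adjusted p = 0.00865). VEGFB had 21.1 and 18.6 RPKM in the Ctrl samples against 23.7 and 26.7 RPKM after the knockdown. It did not pass (log2 fold change 0.33, limma adjusted p = 0.0635), but did once the samples had equal RPKM totals (0.39, adjusted p = 0.0329). With 1 sample left out its log2 fold change was from 0.24 to 0.41. CALCRL, the core receptor of adrenomedullin, was at 0.0473 to 0.0615 RPKM, while its accessory protein RAMP1 was at 94.6 to 105.9 RPKM and did not pass (log2 fold change -0.09, limma adjusted p = 0.225).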

How the data were processed

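RNA was sequenced from 4 samples of BE(2)C cells, grouped by their titles into Ctrl and MYCN KD (2 each). The study's methods call replicates biological, and no label ties them to separate cultures, so p-values measure the spread between these samples. Reads were aligned to hg19 by the authors with HISAT2 (version 2.1.0 in the submitters' processing notes) and assigned to RefSeq genes by featureCounts. After DESeq2 and RUVSeq, which takes out unwanted variation, the authors turned the normalized counts into the deposited RPKM values. Neither the strand setting nor how many factors RUVSeq took out is given in the sources used here.

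The total of each sample was found from RPKM times length of small RNA genes (93.6% to 94.3% of those used came out whole within 0.01 reads), and the smallest gene length that gave whole reads in all 4 samples was then found for all 19908 genes above 0 (100%). Reads that share a factor in all samples are understated by that factor, and all are adjusted reads, not the raw depth. Values were analysed as log2(RPKM + 1), a scale that understates changes of low genes, with limma 3.58.1 in R 4.3.3 (eBayes with a trend, no block, Benjamini-Hochberg adjustment over 11411 genes whose mean reached 1 RPKM, threshold 0.05). Python 3.11.15, pandas 2.3.3 and scipy 1.17.1 were used, and the fit was tested on simulated counts. Positions are from GENCODE on GRCh37, the build of hg19.

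No measured value enters the rule for the 10 genes, but they and the lists were chosen with earlier results of these data known. Named genes were the 10 genes and MYCN, each machinery gene called, up to 4 rises and 4 falls of each other list whose groups did not overlap, and 10 relatives of the 10 genes. Symbols that the files do not use (older or newer names of listed genes) were left out. The alternatives were other pseudocounts, filters and scalings, eBayes without a trend, a replicate block, each sample left out and limma voom on recovered reads. A crossed block and voom without a filter were added after seeing the data.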

Additional observations from a re-analysis of the deposited data

How the results depend on the processing

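EGLN3 kept its fall under each alternative, at log2 fold changes from -0.73 to -0.62. EPAS1 and HIF1AN kept their direction, and HIF1A, EGLN1, VHL and BNIP3 kept theirs. The log2 fold change of VEGFA, 0.01 with all samples, ranged from -0.013 to 0.025 with a sample left out, below 0 without Ctrl replicate 2 or MYCN KD replicate 2. Of the 10 genes, 2 were called higher (EPAS1 and HIF1AN) and 1 lower (EGLN3) with all samples. Fits with a sample left out leave 1 sample in a group, so no count of calls is given for them. Quantile normalization gave 2 lower, with EGLN1 added. With a mean RPKM of at least 5, 1868 of all tested genes were higher, against 2890, since fewer genes were tested. The deviations of same-numbered samples correlated at -0.985 across genes, so the numbers were not taken to pair the samples. The replicate block is therefore 1 more setting of the fit, with 1 residual degree of freedom, and not a check of a pairing. With the replicate block 1 of the 10 genes was higher (HIF1A) and 1 lower (EGLN3), while EPAS1 and HIF1AN were not called (limma, adjusted p = 0.0805 and 0.210), and over all genes 2077 were higher and 1851 lower, against 2890 and 2599. With a crossed replicate block, chosen after seeing the data, 5910 genes were higher and 5262 lower, among them 5 and 3 of the 10 genes, and 37 and 39 genes of the 6 pathway lists, against 18 and 18. Why the counts differ was not tested. Both ratios stayed within their spread with quantile normalization, and the motif counts were the same in the 250 bases before the start alone. With 2 samples per group, leaving 1 out cannot move a mean ratio beyond that spread, so it is no check of the ratios. Depth limits ADM (32 to 49 reads) and CA9 (13 to 23 reads), and it does not limit the other 8 genes, which had 827 reads or more.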

Other observations

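The glycolytic genes known as HIF targets also went both ways. Of 19 tested, 4 rose, 5 fell and 10 did not pass, with a median log2 fold change of -0.10 (47.4% called, against 48.1% of all tested genes). With a block for the replicate number 3 rose and 2 fell, against 2077 and 1851 of all 11411 tested genes. HK2, hexokinase 2, had 10.4 and 11.2 RPKM in the Ctrl samples against 6.18 and 5.76 RPKM after the knockdown, and its log2 fold change was -0.76, and ENO1, the widely expressed enolase, fell by 0.63 on the log2 scale (limma, adjusted p = 0.00567 and 0.00422). ENO2, the neuronal enolase, rose from 176.4 and 165.9 to 232.9 and 247.3 RPKM, a log2 fold change of 0.49 (limma, adjusted p = 0.00911). SLC2A3, the neuronal glucose transporter, rose from 4.20 and 4.80 to 11.1 and 9.71 RPKM, a log2 fold change of 1.05 (limma, adjusted p = 0.00661), while SLC2A1, the widely expressed transporter, named after its values were seen, overlapped between groups at 35.5 to 48.1 RPKM (limma, adjusted p = 0.476). PFKFB4 rose by 0.48 on the log2 scale and PFKFB3, a second enzyme of the same family, fell by 0.27 (limma, adjusted p = 0.00676 and 0.0169). The calls of PFKFB3, PFKP (log2 fold change -0.29) and LDHA (0.24) were lost with the block (limma, adjusted p = 0.228, 0.130 and 0.260). With 1 sample left out their log2 fold changes were from -0.29 to -0.25, from -0.29 to -0.28 and from 0.20 to 0.28.

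Mitophagy genes beside BNIP3 were mixed as well, with 2 higher, 2 lower and 4 not passing among 8 tested (50% called, against 48.1% of all tested genes). With a block for the replicate number 2 were higher and 1 lower, against 2077 and 1851 of all 11411 tested genes. PINK1, the kinase that marks damaged mitochondria, rose from 2.31 and 2.06 to 4.01 and 4.48 RPKM, a log2 fold change of 0.72, and PHB2, a protein of the inner mitochondrial membrane, fell by 0.44 on the log2 scale (limma, adjusted p = 0.00813 and 0.0115). FKBP8 (log2 fold change 0.23) and FUNDC1 (-0.16) passed without the block (limma, adjusted p = 0.0392 and 0.0347) but not with it (0.183 and 0.459). With 1 sample left out the log2 fold changes were from 0.18 to 0.27 for FKBP8 and from -0.17 to -0.15 for FUNDC1. Of 14 other carbonic anhydrase genes, 6 were listed at 0 in each sample and CA11 alone passed the filter, with no call (log2 fold change 0.11, limma adjusted p = 0.131). CA12, like CA9 an anhydrase at the surface of tumor cells, was under the filter, at 0.418 and 0.424 RPKM in the Ctrl samples against 0.172 and 0.169 RPKM after the knockdown. Without a filter the log2 fold change of CA12 was -0.28 on log2(RPKM + 1) (limma, adjusted p = 0.00724). It was -1.28 with limma voom on the recovered reads (adjusted p = 0.00624), an alternative added after seeing the data.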
